A study of Homo sapiens with 2 samples.

Results

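The DNA replication machinery genes are 45 genes that encode the proteins which license origins, unwind the helix, copy both strands and supply deoxynucleotides. They were taken by name from a fixed list, which uses no measured value but was chosen with earlier results of these data known. All 45 were found in both deposited tables, among 26257 gene names shared by the tables, and all 45 had a mean FPKM of at least 1, as did 11118 names in all. FPKM counts sequenced fragments relative to transcript length and to the mapped fragments of the library, so levels can be compared between genes of different length. The members lie on 19 chromosomes.

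The samples were PLC cells, an established line from a human liver tumour, grown as 2 stable lines and sequenced as 1 RNA library each. EV cells carried the empty pCDH lentiviral vector and are labelled WT, whereas PRSS35 cells carried the same vector with the human PRSS35 coding sequence, and both lines were selected with puromycin to give stable cells. No treatment is given for either library, and serum starvation appears in the growth protocol without being tied to them. With 1 library per condition, no difference has a replicate check, no test was possible and no p-value is given. The deposited tables give a lower and an upper FPKM bound for each locus, and these bounds hold only the error of counting and assigning fragments in that library, not the variation between cultures. Fewer cells in S phase and less RNA per cell cannot be told apart in such bulk samples.

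Replication begins when the origin recognition complex, CDC6 and CDT1 load the ring-shaped MCM2-7 helicase onto origins in G1, a step called licensing that geminin (GMNN) blocks by binding CDT1. In S phase CDC45 and the GINS complex join the helicase, polymerase alpha with primase starts each strand, and polymerases epsilon and delta extend the leading and lagging strand on the sliding clamp PCNA, which the RFC complex loads. Many of these genes are transcribed at the G1/S transition under E2F factors, and they are widely used as signs of proliferation in tumours, liver cancer included.

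The transgene checks the labels. PRSS35 (hg19 chromosome 6, 84222194 to 84235421) was nearly silent with the empty vector, at 0.643 FPKM (bounds 0.445 and 0.841), and reached 1836 FPKM (bounds 1759 and 1912) in the overexpressing line. The liver cell label was checked against marker lists. Of 12 hepatocyte markers 11 were expressed, with SERPINA1 at 2528 FPKM in EV and 4239 in PRSS35 and KRT8 at 2457 and 2344, although ALB stood at only 4.05 and 5.21. TTR was at 1.56 and 1.61 FPKM, and FGB, the hepatocyte marker that was not expressed, at 0.598 and 0.540. Of 4 liver cancer markers 3 were expressed, with AFP at 18.9 FPKM in EV and 17.7 in PRSS35. SPINK1 was at 0 in EV and 0.288 in PRSS35. Summed over 5 genes each, endothelial markers reached 0.037 FPKM in EV and 0.031 in PRSS35 (KDR and TEK at 0 in both libraries) and fibroblast markers 1.75 and 2.03 (DCN and COL3A1 at 0 in both). PDGFRB was the only fibroblast gene past the expression limit, at 1.02 FPKM in EV and 1.27 in PRSS35. Of the leukocyte genes, PTPRC and CD3E were at 0 in both libraries, ITGAM was at 0.021 FPKM in EV and 0.050 in PRSS35, and CD14 was at 0 in EV and 0.234 (interval 0.057 to 0.411) in PRSS35. At 208 loci whose bounds imply a whole number of fragments to within 0.01, 1 fragment was worth the same FPKM in both libraries (median ratio of EV to PRSS35 1.00). The FPKM summed over all loci, unnamed ones included, was nonetheless about 2469030 in EV and 1508530 in PRSS35. For the 44 members above 0 in both libraries, the bounds imply 153 to 3016 fragments per gene in EV and 23.6 to 3566 in PRSS35. These are estimates from the width of the interval, not counts.

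As a group the replication genes differed little between EV and PRSS35 cells. Each log2 difference sets PRSS35 over EV after adding a pseudocount of 1 FPKM to both, which understates the change of low genes, and a gene was called at 2-fold or at 1.5-fold on this scale. None of the 45 members was higher by 2-fold or more, against 2.73% of all expressed genes, and 1 was lower (FEN1, described at the end of its group), against 2.48%. At 1.5-fold the members again gave 0 higher, against 5.23% of all expressed genes, and 1 lower, the same FEN1, against 4.27%. The median log2 difference was 0.03 over the 45 members and 0.06 over all expressed genes, and 28 members (62.2%) lay above 0, against 60.2% of expressed genes. For 11 members (24.4%) the interval in PRSS35 lay wholly above that in EV, against 25.1% of expressed genes, and for 6 (13.3%, FEN1 at 0 included) it lay wholly below, against 15.5%. These shares are all close to the background. Across the 44 members above 0 in both libraries, the log2 difference ran from -0.53 (CDT1) to 0.44 (GINS1), and its median size without regard to sign was 0.14, when it was 0.17 over 10903 expressed genes above 0 in both. Their summed FPKM was 2596 in EV and 2573 in PRSS35.

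**Figure D1:**
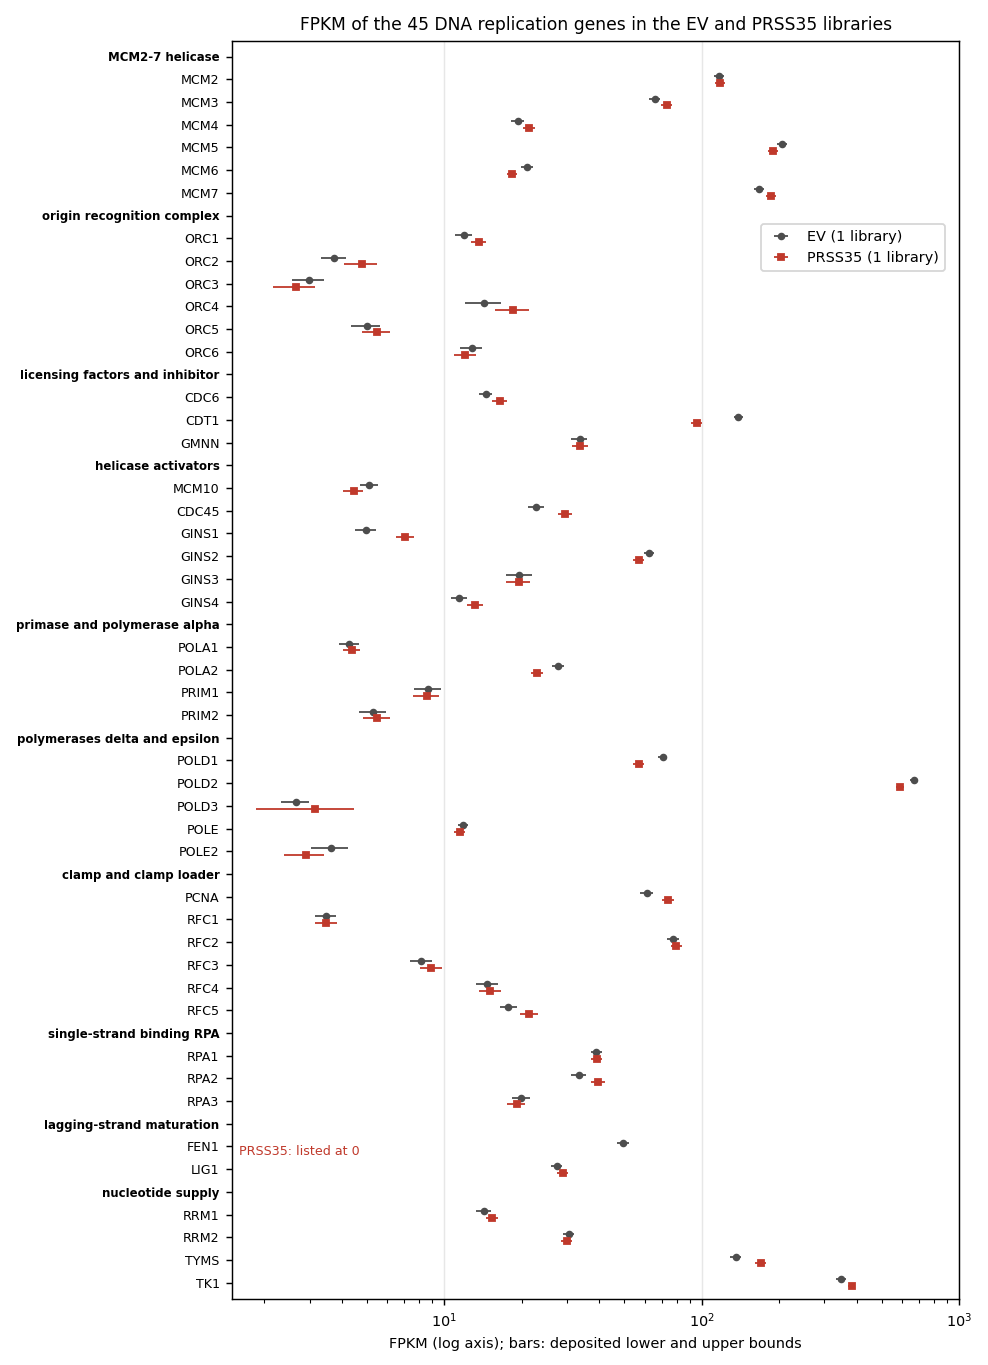
FPKM of each of the 45 members (log axis) in the EV library (grey circles) and the PRSS35 library (red squares), grouped by role, with bars for the deposited lower and upper bounds. The levels span from 2.66 FPKM (ORC3 in PRSS35) to 671 (POLD2 in EV), each pair of points lies close together, and FEN1 has no PRSS35 point because it is listed at 0 there.

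The members differed far more among themselves than between the libraries. In EV cells 7 members had at least 100 FPKM, 26 had from 10 to under 100, and 12 had less than 10, and 33 of the 45 lay above the median expressed gene. POLD2, the small subunit that holds polymerase delta together, was the highest with 671 FPKM in EV and 590 in PRSS35, followed by TK1 and MCM5. By the mean of both libraries ORC3, POLD3 and POLE2 were the lowest, all under 4 FPKM in both, although RFC1 was below POLE2 in EV. The log2 levels of the 44 members above 0 in both libraries had a Pearson correlation of 0.99 between libraries, as a description across genes whose FPKM comes from the same annotation and pipeline.

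Members whose intervals did not overlap are the ones examined further, and their promoters are shown where they illustrate what replication genes share. In RefSeq (GRCh38.p14), 39 of the 45 members had a promoter window, reaching from 250 bases before the annotated start to 50 after it. An E2F-type core was searched on both strands in any of 4 spellings. The spelling TTTCCCG differs from the spelling TTTGGCG, from the spelling TTTCGCG and from the spelling TTTGCCG only in its middle bases. At least 1 spelling was present for 22 of these 39 genes (56.4%), against 10.4% of all 27305 genes with a window and 16.5% of the 8179 expressed genes with one. CCAAT, the core bound by NF-Y, was present for 24 of 39 (61.5%), for 39.7% of all genes and for 43.1% of expressed genes. GGGCGG, the GC box bound by Sp1, was present for 29 (74.4%), above the 48.3% of all genes but below the 78.3% of expressed genes. Windows were found for 8179 of the 11118 expressed genes, so the expressed share covers only those. The E2F core was found for 7 of 9 members with a window whose interval was higher in PRSS35, for 3 of 5 that were lower while above 0 and for 12 of 24 whose intervals overlapped, and it was not found for FEN1. A match is a description of letters, not a bound site. The stretches below run from 180 bases before the start to 30 after it, 5′ to 3′ on the coding strand, with the E2F core in capitals, and belong to the member that was lowest relative to EV while above 0 and to the 4 members that stayed higher in PRSS35 under 4 scalings of the data described further on.
CDT1 (chr16:88803609-88803818, plus strand): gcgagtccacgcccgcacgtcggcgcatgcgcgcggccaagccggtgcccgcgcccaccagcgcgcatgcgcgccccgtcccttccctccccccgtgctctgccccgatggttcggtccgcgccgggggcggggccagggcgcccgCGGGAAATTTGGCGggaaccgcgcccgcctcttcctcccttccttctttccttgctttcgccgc
CDC45 (chr22:19479740-19479949, plus strand): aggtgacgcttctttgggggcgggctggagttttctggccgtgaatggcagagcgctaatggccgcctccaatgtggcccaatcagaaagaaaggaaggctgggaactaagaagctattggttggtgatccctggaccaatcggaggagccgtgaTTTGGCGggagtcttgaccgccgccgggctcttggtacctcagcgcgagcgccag
GINS1 (chr20:25407493-25407702, plus strand): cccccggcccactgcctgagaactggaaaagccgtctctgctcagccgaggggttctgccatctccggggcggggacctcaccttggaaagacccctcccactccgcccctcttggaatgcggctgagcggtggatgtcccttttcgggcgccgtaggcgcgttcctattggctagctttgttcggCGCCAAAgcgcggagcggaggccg
PCNA (chr20:5126593-5126802, minus strand): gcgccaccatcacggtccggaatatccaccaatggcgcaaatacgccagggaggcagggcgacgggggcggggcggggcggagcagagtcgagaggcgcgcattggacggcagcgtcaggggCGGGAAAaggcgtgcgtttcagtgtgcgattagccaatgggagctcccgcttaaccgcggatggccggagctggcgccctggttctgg
TYMS (chr18:657473-657682, plus strand): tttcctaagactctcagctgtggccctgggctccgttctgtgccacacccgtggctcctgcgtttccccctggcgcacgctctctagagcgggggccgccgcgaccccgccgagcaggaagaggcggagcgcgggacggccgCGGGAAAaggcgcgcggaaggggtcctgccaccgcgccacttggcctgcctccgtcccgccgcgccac
CDT1 holds 2 adjacent cores with opposite orientation, at positions -34 and -27 from the start, and the others hold 1 each, at -25 in CDC45, 7 in GINS1, -58 in PCNA and -38 in TYMS. CDC45 and PCNA have further windows in RefSeq without the core, and the ones printed are those that hold it. The core was present in CDT1, lower in PRSS35, and in 4 genes that were higher. Among the other members that stayed lower under the 4 scalings, it was found for MCM6 and POLA2 but not for POLD1 and POLD2.

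Of the members above 0 in both libraries, the licensing factor CDT1 had the log2 difference of largest size. CDT1, the loader that brings MCM2-7 to origins, spans 88870186 to 88875666 on hg19 chromosome 16. It stood at 138.8 FPKM (interval 133.5 to 144.2) in EV and at 95.6 (interval 91.0 to 100.2) in PRSS35. The PRSS35 value was 0.689 times the EV value (interval of the ratio 0.648 to 0.732, from 2 standard errors taken from the bounds), and the locus was assembled from the reads in both libraries. Its partner CDC6 went the other way, with 14.5 FPKM (interval 13.7 to 15.3) in EV and 16.4 (interval 15.4 to 17.5) in PRSS35. Geminin, the inhibitor of CDT1, stood at 33.6 and 33.8 FPKM with overlapping intervals. On the deposited FPKM CDT1 was thus lower and CDC6 higher, and for geminin the ratio was 1.01 (interval 0.911 to 1.11). The CDC6 intervals overlapped after centring or upper quartile scaling, described further on, and its locus was assembled in PRSS35 alone.

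The 6 subunits of MCM2-7, which form 1 ring with 1 copy each, differed up to 10.6-fold in transcript level in EV and 10.3-fold in PRSS35. MCM5 was the highest, at 204.5 FPKM in EV and 189.8 in PRSS35, then MCM7 (167.5 and 186.2), MCM2 (117.2 and 118.0) and MCM3 (65.7 and 73.1). MCM4 and MCM6 were near 20 FPKM in both libraries and were the only neighbours that changed places, MCM6 going from 21.0 to 18.4 and MCM4 from 19.3 to 21.4. Intervals were apart for MCM3 and MCM7, both higher in PRSS35 at 1.11 times EV, and for MCM6, lower at 0.876 times. In the PRSS35 table MCM7 shares its locus with MIR25, which lies inside the gene. On the deposited FPKM the ring therefore showed small differences in both directions. After centring or upper quartile scaling the intervals of MCM3 and MCM7 overlapped, whereas MCM6 stayed lower. The MCM6 locus was assembled in EV alone.

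The origin recognition complex marks the sites at which the helicase is loaded. All 6 ORC genes had overlapping intervals, with log2 differences from -0.13 (ORC3) to 0.35 (ORC4). ORC4 had 14.3 FPKM (interval 12.0 to 16.6) in EV and 18.5 (interval 15.8 to 21.3) in PRSS35, and ORC1, the subunit most tied to the cell cycle, had 11.9 and 13.6. ORC2, ORC3 and ORC5 were at or under 5.48 FPKM in both libraries.

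The activators that turn the loaded ring into a working helicase held the largest increases. GINS1 had 4.96 FPKM (interval 4.50 to 5.42) in EV and 7.06 (interval 6.51 to 7.61) in PRSS35, 1.42 times EV (interval 1.26 to 1.61), at a locus that kept its annotated structure in both libraries. CDC45 had 22.7 FPKM (interval 21.1 to 24.3) and 29.5 (interval 27.6 to 31.4), 1.30 times EV (interval 1.18 to 1.43). GINS4 was also higher, 11.4 against 13.2 FPKM, with intervals that just missed each other. The other 2 subunits of the 4-part GINS complex did not share this, with GINS2 at 62.5 and 57.0 FPKM and GINS3 at 19.6 and 19.5, both with overlapping intervals. MCM10, which binds the activated helicase, stood at 5.12 and 4.44 FPKM with overlapping intervals.

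Among the listed polymerase members, all differences with intervals apart were in the lower direction. Polymerase subunits outside the members did not all follow. POLE3 was higher with intervals apart, at 41.0 FPKM in EV and 48.2 in PRSS35. POLE4 was lower with intervals apart (77.7 and 63.4), and the intervals of POLD4 overlapped (75.8 and 79.0). POLD1, the catalytic subunit of polymerase delta, had 70.5 FPKM (interval 67.6 to 73.4) in EV and 56.9 (interval 54.1 to 59.7) in PRSS35, 0.807 times EV. POLD2 was at 0.879 times EV, and POLA2, the accessory subunit of polymerase alpha, had 27.6 FPKM (interval 26.2 to 29.1) and 23.0 (interval 21.8 to 24.2). POLD3 did not follow the other delta subunits, with 2.66 FPKM in EV and 3.15 in PRSS35, but its intervals overlapped. Its PRSS35 interval was wide, at 1.85 to 4.45, and this width implies 23.6 fragments, against 257 in EV. The POLD3 locus was assembled in PRSS35 alone. For POLA1, PRIM1, PRIM2, POLE and POLE2, the intervals overlapped. POLE2 had the lowest value of these relative to EV, at 3.63 and 2.89 FPKM.

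The sliding clamp and its loader all lay at or above their EV level. PCNA had 61.2 FPKM (interval 57.8 to 64.6) in EV and 74.1 (interval 70.4 to 77.8) in PRSS35, 1.21 times EV (interval 1.12 to 1.31). Its locus overlaps the antisense gene PCNA-AS1, listed at 224.8 and 230.9 FPKM, and since no strand-specific counting is stated, reads of the 2 cannot be told apart. RFC5 had 17.8 FPKM in EV and 21.4 in PRSS35, with intervals apart. RFC1, the large subunit, was at 3.48 FPKM in both libraries, and RFC2, RFC3 and RFC4 differed by log2 values of 0.03 to 0.12 with overlapping intervals. RFC2 was 22.2-fold above RFC1 in EV and 22.9-fold in PRSS35, although the loader holds both.

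In the single-strand binding complex RPA, the highest and lowest subunits differed by 1.96-fold in EV and 2.07-fold in PRSS35. RPA2 had 33.3 FPKM (interval 31.1 to 35.4) in EV and 39.5 in PRSS35, with intervals apart, whereas RPA1 (39.0 and 39.1) and RPA3 (19.9 and 19.1) had overlapping intervals. RPA2 thereby came level with RPA1.

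For the enzymes that supply deoxynucleotides, 2 of 4 had intervals apart and both were higher. TYMS, thymidylate synthase, had 135.4 FPKM (interval 128.8 to 142.1) in EV and 169.5 (interval 161.4 to 177.6) in PRSS35, 1.25 times EV (interval 1.17 to 1.34), at a locus annotated in both libraries that overlaps ENOSF1 (14.8 and 18.5 FPKM). TK1, the thymidine kinase of the salvage route, had 348.5 and 382.7 FPKM, 1.10 times EV. The ribonucleotide reductase subunits RRM1 (14.2 and 15.4) and RRM2 (30.4 and 29.9) had overlapping intervals. Both thymidylate enzymes were thus higher, and neither reductase subunit differed beyond its intervals. Separation of intervals is the stricter reading of the bounds: MCM4, MCM5, ORC1, ORC2, ORC4, MCM10 and GINS2 had overlapping intervals although the interval of their ratio left out 1.

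**Figure D2:**
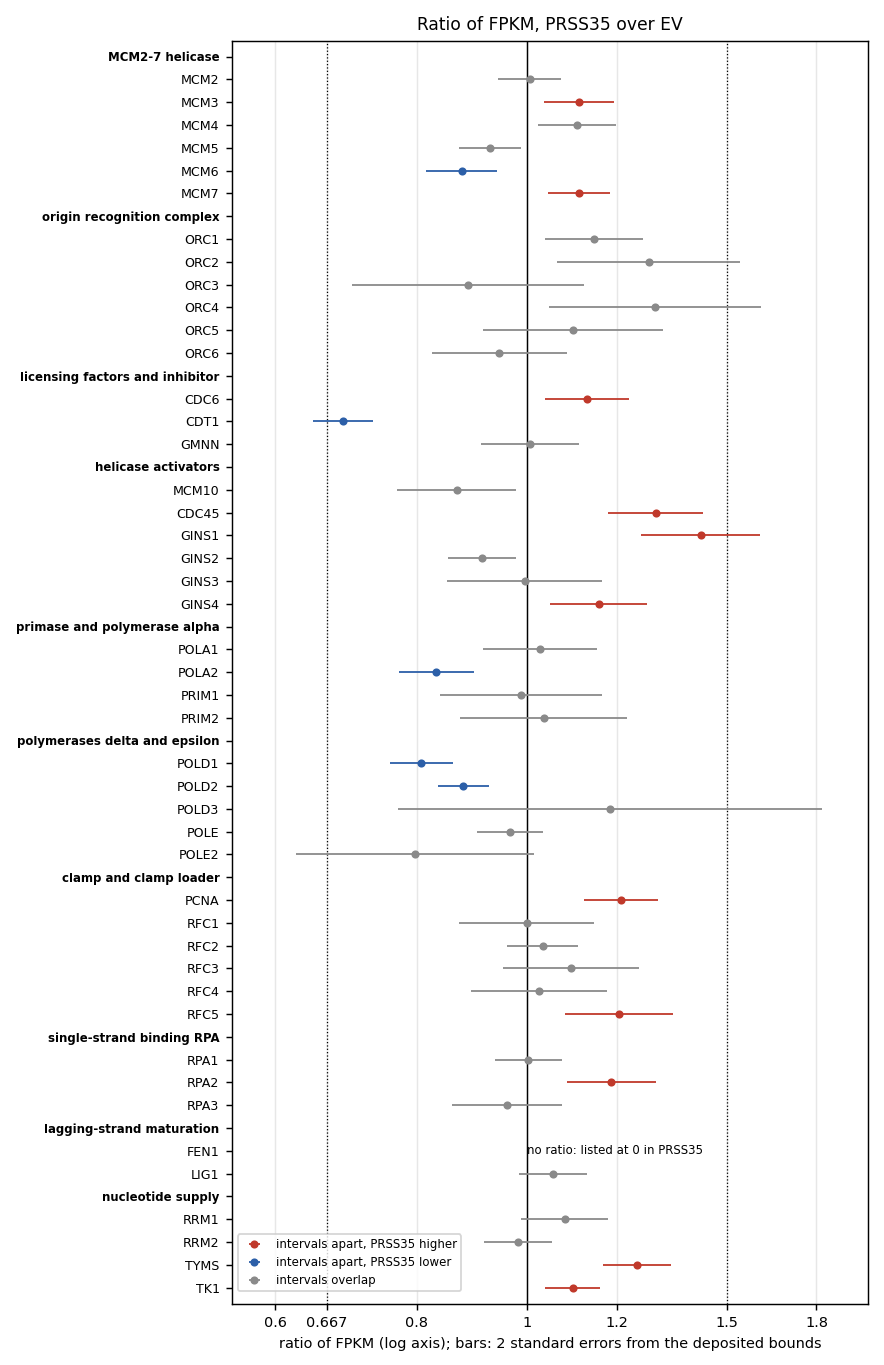
Ratio of FPKM in PRSS35 to that in EV for 44 members (log axis), with bars of 2 standard errors from the deposited bounds, in red where the intervals lie apart with PRSS35 higher, in blue where PRSS35 is lower and in grey where they overlap. Dotted lines mark 1.5-fold; every point lies between them, from 0.689 (CDT1) to 1.42 (GINS1), and FEN1 has no ratio.

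Lagging-strand maturation was read from LIG1, the ligase that seals Okazaki fragments, and FEN1, the nuclease that removes their flaps. LIG1 had 27.4 FPKM in EV and 28.9 in PRSS35 with overlapping intervals. FEN1, on chromosome 11 of hg19 from 61560109 to 61564714, had 49.5 FPKM (interval 46.8 to 52.3) in EV and is listed at 0, with both bounds at 0, in PRSS35. In the EV table it is an annotated locus next to a locus of TMEM258 and MIR611 (1277 FPKM), with FTH1, encoding the ferritin heavy chain, as a separate locus at 946.0 FPKM. In the PRSS35 table TMEM258, MIR611 and FTH1 form 1 assembled locus of 178.5 kb with 2911 FPKM that runs across FEN1. FADS1, FADS2, FADS3 and RAB3IL1 lie inside the same span and kept values of 31.8 to 92.5 FPKM, while BEST1 is listed at 0 in both tables. No fold is given because the PRSS35 value is 0, and whether the 0 is a failed estimate was not tested. Of all expressed genes, 1.02% are listed at 0 in PRSS35 and 0.917% in EV.

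**Figure D3:**
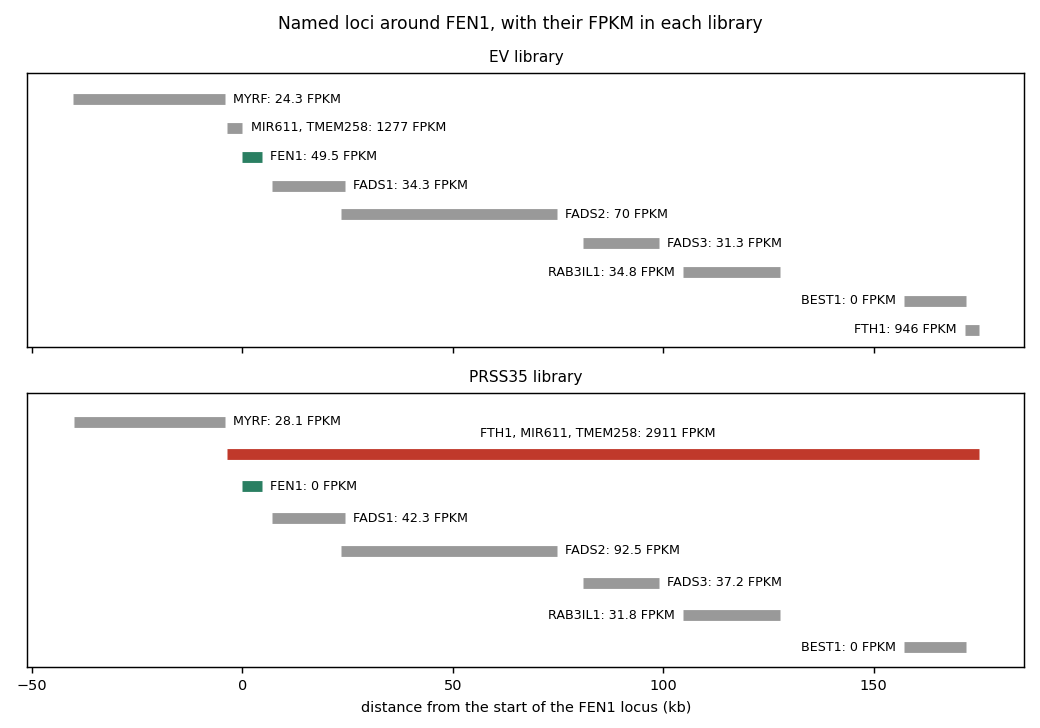
Named loci around FEN1 by distance from the start of its locus (kb), in the EV library (top) and the PRSS35 library (bottom), each with its FPKM. FEN1 (green) has 49.5 FPKM in EV and 0 in PRSS35, where a joined locus of TMEM258, MIR611 and FTH1 (red, 178.5 kb) runs across it.

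Scaling bears on these small differences. When log2 differences were centred on the median expressed gene, or FPKM was scaled by the upper quartile, 5 and 4 members stayed higher with intervals apart, in place of 11, against 18.8% and 18.4% of expressed genes. Under both, 9 members were lower with intervals apart, in place of 6, against 20.3% and 20.7% of expressed genes, so that lower members outnumbered higher ones. CDC45, GINS1, PCNA and TYMS were the 4 that stayed higher as deposited, with both of these and with scaling by the sum over named loci. CDT1, MCM6, POLA2, POLD1 and POLD2 stayed lower with intervals apart in all 4. Division by the sum over all loci, unnamed ones included, brought the all-gene median from 0.06 up to 0.68. With it the log2 differences of these 5 turned positive, from 0.17 (CDT1) to 0.52 (POLD2), and all 5 remained below the median gene. Assembly also differed between the tables: 10 members kept the annotated locus in both, and 24 were assembled from the reads in both. Of the 8 members assembled in PRSS35 alone, CDC6 and RPA2 were higher there, and of the 3 assembled in EV alone, MCM6 was higher in EV. Implied fragments come from the width of the interval and are not read counts. For MCM6 the FPKM was lower in PRSS35 while the implied fragments rose from 1278 in EV to 2036 in PRSS35. FPKM was higher while implied fragments fell for MCM3 (1685 to 1557), CDC6 (1264 to 961) and RFC5 (694 to 648). For the other members with intervals apart and above 0, implied fragments and FPKM moved in the same direction. The part of assembly in these differences was not tested.

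Other genes of the replication pathway were read from a list of 47 further genes, of which 41 were expressed. Their median log2 difference was -0.03, with 6 intervals apart and higher in PRSS35 and 5 lower, or 14.6% and 12.2% of the expressed ones, against 25.1% and 15.5% of all expressed genes. DSCC1, a subunit of the alternative clamp loader for sister chromatid cohesion, was past 2-fold, with 5.12 FPKM (interval 4.33 to 5.91) in EV and 14.97 (interval 11.5 to 18.4) in PRSS35. RNASEH1, which removes RNA from RNA-DNA hybrids, had 31.9 FPKM (interval 29.3 to 34.4) and 19.5 (interval 18.1 to 20.9). RNASEH2C had 88.5 and 63.6 FPKM, but its EV interval was wide and the intervals overlapped.

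Of 25 E2F factors and G1/S regulators 21 were expressed, with a median log2 difference of 0.06, as over all expressed genes. This list was read on the deposited FPKM only, without the other scalings. On that scale 9 genes (42.9%) had intervals apart and higher in PRSS35, against 25.1% of all expressed genes, while 1 (4.76%) was lower, against 15.5%. That one was E2F1, an activator of many replication genes, with 134.1 FPKM (interval 117.1 to 151.1) in EV and 91.6 (interval 89.4 to 93.8) in PRSS35. Its log2 difference was -0.54, and any link to the replication genes was not tested. Its locus was assembled from the reads in EV alone. CDK6 was past 2-fold, with 1.22 FPKM (interval 1.09 to 1.34) and 4.80 (interval 3.60 to 6.01), and SKP2, which targets licensing factors for destruction, had 10.2 and 13.4. E2F2 (8.71 and 10.9) and E2F3 (2.12 and 2.78) had intervals apart and higher in PRSS35. Assembly differed for these as well, in PRSS35 alone for E2F2 and in EV alone for E2F3. E2F6 and RBL2, also higher with intervals apart, were assembled in PRSS35 alone. The other genes higher with intervals apart had the same kind of locus in both libraries. CDK6, SKP2, CDK4 (383.1 and 468.4 FPKM) and TFDP1 (38.2 and 45.5) were assembled in both, and CDK2 (26.0 and 30.1) was annotated in both.

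Mitosis and spindle genes, which peak later in the cycle, had 30 of 32 genes expressed, 0 past 1.5-fold in either direction (5.23% and 4.27% of expressed genes were) and a median log2 difference of -0.01. Intervals were apart for 5 with PRSS35 higher (16.7%, against 25.1% of expressed genes) and for 4 lower (13.3%, against 15.5%). AURKA had 112.1 FPKM in EV and 147.4 in PRSS35, and CCNB1, the cyclin of mitotic entry, had 71.4 and 86.5. BUB1B had 4.98 and 3.21 at a locus joined with other genes. The difference between the mitosis genes and the replication genes was not tested.

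**Figure D4:**
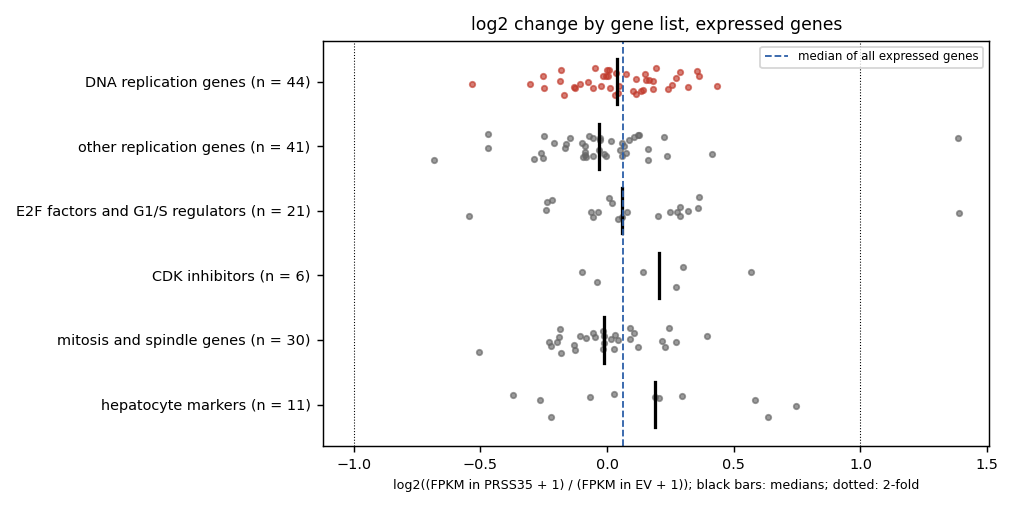
Log2 difference of PRSS35 over EV (pseudocount of 1 FPKM, horizontal axis) for each expressed gene, by list, with a black bar at each median and a dashed line at the median of all expressed genes, 0.06. The 44 replication genes above 0 in both libraries (red) lie between -0.53 and 0.44 with a median of 0.04, and FEN1 (listed at 0 in PRSS35) and CDKN2B (joined with CDKN2A in PRSS35) are not drawn.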

How the data were processed

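The authors sequenced 1 library per condition on a HiSeq2500, aligned the reads to hg19 with TopHat2 2.1.0 and estimated transcripts with Cufflinks 2.2.1 (GEO's tool list names Cuffdiff 2.2.1). The deposited FPKM and its bounds were used as they stand, and the annotation release and options are not given in the sources used here. The FPKM of loci with the same name was summed, and a locus with several names counted for each. Locus starts are printed plus 1, since 6083 of 14141 annotated starts then equal a GENCODE start and 581 as written. Expressed genes are those averaging 1 FPKM or more over both libraries, and the pseudocount was 1. A standard error is the distance from FPKM to its upper bound divided by 2. Members, lists and thresholds were chosen with earlier results of these data known. Named genes are the members past 1.5-fold, with intervals apart, at joined loci or at 0, the 3 highest and lowest, and up to 3 genes per other list with the largest change. Other members within a role, and KRT8, ALB, FGB, TTR, SPINK1, E2F2, E2F3, E2F6, RBL2, ITGAM and CD14, were added after their values were seen. So were POLE3, POLE4, POLD4, CDK2, CDK4 and TFDP1. The summed leukocyte list is not reported here. Alternatives tried were other pseudocounts, scalings, filters and locus rules. Python 3.11.15, numpy 2.4.6, pandas 2.3.3 and matplotlib 3.10.9 were used.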

Additional observations from a re-analysis of the deposited data

How the results depend on the processing

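No paired analysis was possible because there was a single library of each line, and no replicate could be left out. The median log2 difference of the members stayed between -0.03 and 0.07 with both other pseudocounts, 3 of the scalings, both filters and each rule on loci. Division by the sum over all loci raised it to 0.70, gave 4 members higher at 2-fold and 33 at 1.5-fold (1254 and 7085 of 11118 expressed genes), 43 higher and 1 lower with intervals apart (86.9% and 2.51% of expressed genes), and log2 differences of 0.50 for MCM6, 0.17 for CDT1, 0.43 for POLA2, 0.40 for POLD1 and 0.52 for POLD2; over all expressed genes it moved the share of 2-fold calls that were higher from 52.3% to 87.2%. Centring and upper quartile scaling left 5 and 4 members higher with intervals apart, had 9 lower in each, and put 2 lower at 1.5-fold, FEN1 and CDT1. Among the 10 members that kept their annotated locus in both libraries, 2 were higher and 0 lower with intervals apart. With that restriction, without genes listed at 0 in one library, and without the 7 members that overlap another named locus above 0, 0 members were lower at 2-fold and 0 at 1.5-fold, since each leaves FEN1 out; the last 2 settings were chosen after seeing the data. For PRSS35 itself, pseudocounts of 0.1 and 5 FPKM gave log2 differences of 11.27 and 8.35, and division by the sum gave 10.64. The bounds implied the fewest fragments for POLD3, ORC3 and POLE2 in PRSS35 and for POLE2 and ORC4 in EV.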

Other observations

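CDK inhibitors, which restrain the kinases that start S phase, were listed apart from the members. Of 8 genes 7 were expressed, and 4 had intervals apart with PRSS35 higher and 0 lower, against 25.1% and 15.5% of all expressed genes. Of these 4, CDKN2A and CDKN2B are 1 joined locus in PRSS35, and CDKN2B passed the expression limit only through it. CDKN2C, an inhibitor of CDK4 and CDK6, had 20.2 FPKM (interval 18.7 to 21.6) in EV and 30.4 (interval 28.4 to 32.3) in PRSS35 at a locus annotated in both libraries, a log2 difference of 0.57. CDKN1A had 8.70 and 10.9 FPKM. CDKN2B is listed at 0.541 FPKM in EV and shares a joined locus with CDKN2A in PRSS35, where both carry the same 294.0 FPKM, so its value in PRSS35 is that of the joined locus. CDKN2A had 266.6 FPKM in EV.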
